A study of Homo sapiens with 6 samples.

Results

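The enzymes described here make serine, pass its carbon to folate or break serine down. They are the 10 genes PHGDH, PSAT1, PSPH, SHMT1, SHMT2, MTHFD1, MTHFD2, MTHFD1L, ALDH1L2 and SDS, taken by symbol from the 58395 genes of the deposited count tables. Of these, 4 encode mitochondrial enzymes of one-carbon metabolism, 2 cytosolic ones, 3 the steps of serine synthesis, and SDS a serine-degrading enzyme. SHMT2, ALDH1L2 and SDS lie on chromosome 12, and the other 7 genes on different chromosomes. The cells were THP-1, a human monocytic leukaemia line, either kept for 16 h with 1 µM monensin, a sodium ionophore, or given no exposure, with 3 libraries in each group. No vehicle is named for the untreated cells, so an effect of a vehicle and that of monensin cannot be told apart. The labels do not say whether the 3 libraries of a group came from separate cultures, and the p-values measure only the spread between these libraries, which may be technical.

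Cells make serine from 3-phosphoglycerate, an intermediate of glycolysis, in a short pathway of 3 enzymes. Serine hydroxymethyltransferase then splits serine into glycine and a carbon unit held on tetrahydrofolate (THF). In mitochondria this unit is oxidised to formate or CO2, and formate that reaches the cytosol feeds the synthesis of purines, thymidylate and methyl groups. In many human cells several of these genes are known targets of ATF4, the transcription factor of the integrated stress response, and dividing cells are known for high levels of MTHFD2.

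All 10 genes had enough counts to be tested. With monensin, 8 were raised and 2 were lowered by edgeR's quasi-likelihood test at an adjusted p under 0.05. Across all 16542 tested genes, 67.8% were called: 34.1% were raised and 33.7% were lowered. Raised genes were all 3 of serine synthesis, the 4 mitochondrial enzymes and SDS; lowered were the cytosolic SHMT1 and MTHFD1. PHGDH, PSAT1, ALDH1L2 and SDS rose at least 2-fold, as did 9.41% of tested genes, and MTHFD1 fell at least 2-fold, as did 3.83%. The median log2 fold change of the 10 genes was 0.89, against 0.02 over all tested genes. The groups did not overlap for any of the 10, and for 71.1% of tested genes.

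**Figure D1:**
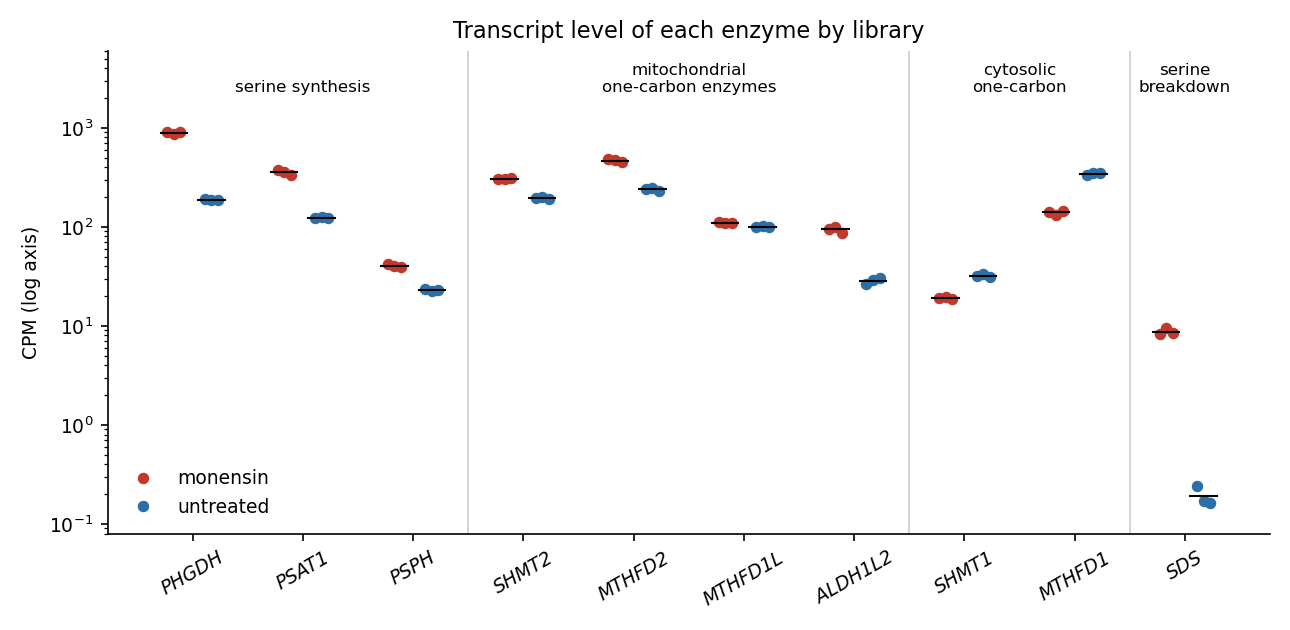
Transcript levels in CPM (log axis) of each gene in every library, with monensin libraries in red left of untreated libraries in blue and a black line at each group mean; levels of different genes are not scaled for length. Monensin and untreated points are apart for all 10 genes, with the monensin points above for 8 and below for SHMT1 and MTHFD1.

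The promoter windows of the genes are shown because members that changed together may be compared by what lies before their start sites. RefSeq (build GRCh38.p14) gave a window of 250 bases before to 50 after the start for 7 of the 10 genes: PHGDH, PSAT1, SHMT1, MTHFD1, MTHFD2, MTHFD1L and SDS. PSPH, SHMT2 and ALDH1L2 had no window in that table. Below are 4 genes that were raised, among them MTHFD1L with the smallest change, and the lowered MTHFD1, each read 5′ to 3′ on the strand of the gene. Capitals mark matches to TGATGNAA (the core of a composite C/EBP-ATF element), to CACGTG (an E-box) and to CCAAT, on either strand.
PHGDH, chr1:119711684-119711983, + strand: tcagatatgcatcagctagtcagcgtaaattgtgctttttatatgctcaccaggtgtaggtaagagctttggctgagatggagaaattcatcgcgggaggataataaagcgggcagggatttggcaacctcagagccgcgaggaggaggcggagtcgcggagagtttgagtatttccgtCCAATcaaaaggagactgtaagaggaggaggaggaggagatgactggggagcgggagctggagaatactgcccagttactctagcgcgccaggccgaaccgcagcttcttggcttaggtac
PSAT1, chr9:78296875-78297174, + strand: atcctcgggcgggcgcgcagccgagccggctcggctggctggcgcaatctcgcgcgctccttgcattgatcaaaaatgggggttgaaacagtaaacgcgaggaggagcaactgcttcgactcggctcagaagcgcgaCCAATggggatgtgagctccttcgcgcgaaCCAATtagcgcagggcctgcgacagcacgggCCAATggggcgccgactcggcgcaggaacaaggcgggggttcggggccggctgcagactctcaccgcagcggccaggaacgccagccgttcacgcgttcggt
MTHFD2, chr2:74198365-74198664, + strand: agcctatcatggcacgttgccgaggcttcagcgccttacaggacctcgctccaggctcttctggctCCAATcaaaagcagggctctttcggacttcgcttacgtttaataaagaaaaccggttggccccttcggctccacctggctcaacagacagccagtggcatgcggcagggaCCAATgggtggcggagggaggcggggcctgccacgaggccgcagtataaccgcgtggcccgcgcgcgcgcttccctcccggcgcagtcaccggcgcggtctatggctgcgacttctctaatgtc
MTHFD1L, chr6:150866236-150866535, + strand: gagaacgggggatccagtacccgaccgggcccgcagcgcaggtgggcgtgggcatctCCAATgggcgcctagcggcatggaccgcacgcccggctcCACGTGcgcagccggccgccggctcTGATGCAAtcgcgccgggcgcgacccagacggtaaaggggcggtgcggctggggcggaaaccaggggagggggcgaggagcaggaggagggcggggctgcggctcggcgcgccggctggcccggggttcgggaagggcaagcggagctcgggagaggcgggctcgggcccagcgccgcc
MTHFD1, chr14:64388103-64388402, + strand: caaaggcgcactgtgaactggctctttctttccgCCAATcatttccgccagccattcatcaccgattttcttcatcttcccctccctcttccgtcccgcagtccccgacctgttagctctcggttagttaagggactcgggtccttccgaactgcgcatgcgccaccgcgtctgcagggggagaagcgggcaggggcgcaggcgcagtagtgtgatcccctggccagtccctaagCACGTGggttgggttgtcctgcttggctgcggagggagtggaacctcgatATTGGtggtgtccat

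TGATGNAA was found in 1 of the 7 genes, MTHFD1L, and in 4.46% of the 27305 genes with a window. In the MTHFD1L window shown it begins 129 bases before the start. Counted from other starts of the gene, the same site begins 90 bases before the start or at base 25 after it. MTHFD1L was the gene with the smallest change of the 10. PHGDH, PSAT1, MTHFD2 and SDS, and the lowered SHMT1 and MTHFD1, had no match in these windows. Inexact matches and sites outside the windows were not sought, and a link between motifs and changes was not tested. CACGTG was found in MTHFD1 and MTHFD1L and in 8.77% of all genes. CCAAT, a motif chosen after the sequences had been read, was found in all 7 genes and in 39.7% of all genes; it does not overlap a match to either of the other motifs. PSAT1 held 3 forward matches, which begin 113, 83 and 52 bases before the start, and PHGDH held 1, at 71 bases. CCAAT was present before the lowered genes SHMT1 and MTHFD1 as well as the raised ones. MTHFD1L had 4 windows in the table for its different starts, of which 3 overlap and share the same matches at different distances from the start.

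Transcripts of serine synthesis enzymes rose at every step, most at the first. PHGDH, which oxidises 3-phosphoglycerate and commits it to serine, lies on chromosome 1 from 119648411 to 119744226 on GRCh38 in GENCODE 29. Levels are given as CPM, counts scaled to a common depth. PHGDH had 899, 869 and 917 CPM in monensin libraries, against 193, 187 and 185 CPM in untreated libraries. Each monensin library was thus far above every untreated one. The log2 fold change was 2.25 (SE 0.04, edgeR adjusted p = 7.55e-16), a 4.76-fold rise. PSAT1, the aminotransferase of the pathway's middle step, had 375, 359.7 and 335 CPM in monensin libraries and 121, 124 and 122 CPM in untreated libraries. Its log2 fold change was 1.54 (SE 0.05, edgeR adjusted p = 3.62e-13). The monensin libraries varied more among themselves than the untreated ones for this gene, but by far less than the difference between groups. PSPH, the phosphatase that releases serine, had 42.5, 40.2 and 39.2 CPM in monensin libraries and 23.7, 22.3 and 23.2 CPM in untreated libraries. Its log2 fold change was 0.82 (SE 0.06, edgeR adjusted p = 5.93e-09). The 3 steps differed in size of change, and their 95% intervals on the log2 scale did not overlap: 2.16 to 2.34 for PHGDH, 1.44 to 1.64 for PSAT1 and 0.69 to 0.94 for PSPH.

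Copies of PSAT1 and PSPH elsewhere in the genome could take some of their reads. PSPHP1, an unprocessed pseudogene of PSPH, had 239 counts over the monensin libraries and 257 over the untreated libraries, and was not called (log2 fold change -0.12, edgeR adjusted p = 0.451). PSPH itself had 1091, 1004 and 914 counts in monensin libraries and 592, 520 and 573 in untreated libraries. Whether reads of PSPH were lost to PSPHP1 was not tested. PSAT1P3, the PSAT1 pseudogene with most counts, had 17 counts over the monensin libraries and 10 over the untreated libraries. PSAT1 itself had 9618, 8993 and 7811 counts in monensin libraries and 3029, 2901 and 3026 in untreated libraries, so its copies held little beside it.

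Transcripts of the mitochondrial enzymes rose by very different amounts. SHMT2, which converts serine to glycine in mitochondria, had 302, 305 and 312 CPM in monensin libraries and 195, 198 and 193 CPM in untreated libraries, with a log2 fold change of 0.65 (SE 0.04, edgeR adjusted p = 7.11e-10); after correction for trends with GC and length it was 0.41. MTHFD2, the dehydrogenase and cyclohydrolase that follows it, had 481, 470.2 and 448 CPM in monensin libraries and 241, 248 and 231 CPM in untreated libraries. Its log2 fold change was 0.96 (SE 0.04, edgeR adjusted p = 2.51e-11), just under a 2-fold rise. ALDH1L2, which oxidises formyl-THF to CO2 with production of NADPH, had 95.5, 99.7 and 87.2 CPM in monensin libraries and 26.5, 29.03 and 30.6 CPM in untreated libraries. With a log2 fold change of 1.71 (SE 0.06, edgeR adjusted p = 4.08e-12) it was the mitochondrial enzyme that rose most in these libraries.

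MTHFD1L, which releases formate from formyl-THF in mitochondria, hardly differed. It had 111, 110.1 and 110.2 CPM in monensin libraries and 98.6, 102 and 99.0 CPM in untreated libraries. The groups did not overlap, but they lay close together. The log2 fold change was 0.15 (SE 0.04, edgeR adjusted p = 0.00609), with a 95% interval from 0.06 to 0.24. It was 0.23 under total counts and -0.01 (adjusted p = 0.816) after correction for trends with GC and length, so neither the direction nor the call held under that correction. ALDH1L2 and MTHFD1L both use mitochondrial formyl-THF, and the 95% interval of ALDH1L2, from 1.58 to 1.85, lay far above that of MTHFD1L.

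**Figure D2:**
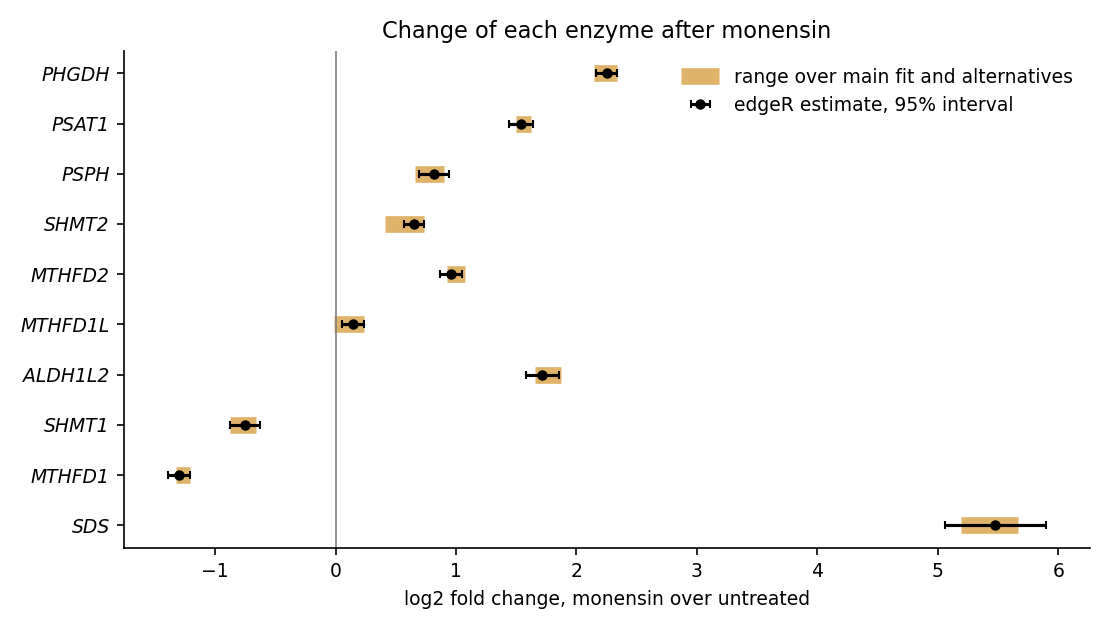
Log2 fold change of monensin over untreated for each gene, as the edgeR estimate with its 95% interval (black) and the range over that fit and 13 alternatives (ochre bar). The bars lie right of 0 for the raised genes except MTHFD1L, which reaches -0.01, and left of 0 for SHMT1 and MTHFD1.

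The cytosolic enzymes SHMT1 and MTHFD1 went the other way. ALDH1L1, the paralog of ALDH1L2, had 0 counts in every library and was not tested. SHMT1, the cytosolic serine hydroxymethyltransferase, had 19.0, 19.4 and 18.7 CPM in monensin libraries and 31.6, 33.3 and 31.2 CPM in untreated libraries, with a log2 fold change of -0.75 (SE 0.06, edgeR adjusted p = 1.82e-08). MTHFD1, a cytosolic enzyme that carries dehydrogenase, cyclohydrolase and formyl-THF synthetase activities in 1 protein, had 141, 133 and 145 CPM in monensin libraries and 335, 347 and 349 CPM in untreated libraries. Its log2 fold change was -1.30 (SE 0.04, edgeR adjusted p = 1.07e-12). Every monensin library was below every untreated one for both genes.

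Ratios of counts within a library do not depend on how libraries are scaled, and 4 were fixed for comparison. The ratio of SHMT2 to SHMT1 counts was 16.1 ± 0.532 in monensin libraries and 6.09 ± 0.123 in untreated libraries (mean ± SD, n = 3 each). MTHFD2 to MTHFD1 was 3.41, 3.53 and 3.09 in monensin libraries and 0.720, 0.713 and 0.664 in untreated libraries. MTHFD2 thus had more counts than MTHFD1 in each monensin library and fewer in each untreated one, without scaling for gene length. In counts scaled to depth and to kilobases of merged exons (RPKM), MTHFD2 was above MTHFD1 in untreated libraries too. The untreated means were 49.3 RPKM for MTHFD2 and 36.6 RPKM for MTHFD1, or 53.9 and 50.4 by the longest transcript. The change in the ratio does not depend on length, but which gene is higher does. MTHFD1L to MTHFD1 was 0.791 ± 0.0336 in monensin libraries and 0.291 ± 0.00588 in untreated libraries (mean ± SD, n = 3 each). MTHFD1L itself hardly differed between groups, while MTHFD1 fell. ALDH1L2 to SHMT2 was 0.308 ± 0.0248 in monensin libraries and 0.147 ± 0.0113 in untreated libraries (mean ± SD, n = 3 each). The groups did not overlap for any of the 4 ratios. Each had p = 0.1 in a two-sided exact permutation test, which is the smallest p that 3 libraries against 3 allow, and an adjusted p of 0.1 over the 4.

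**Figure D3:**
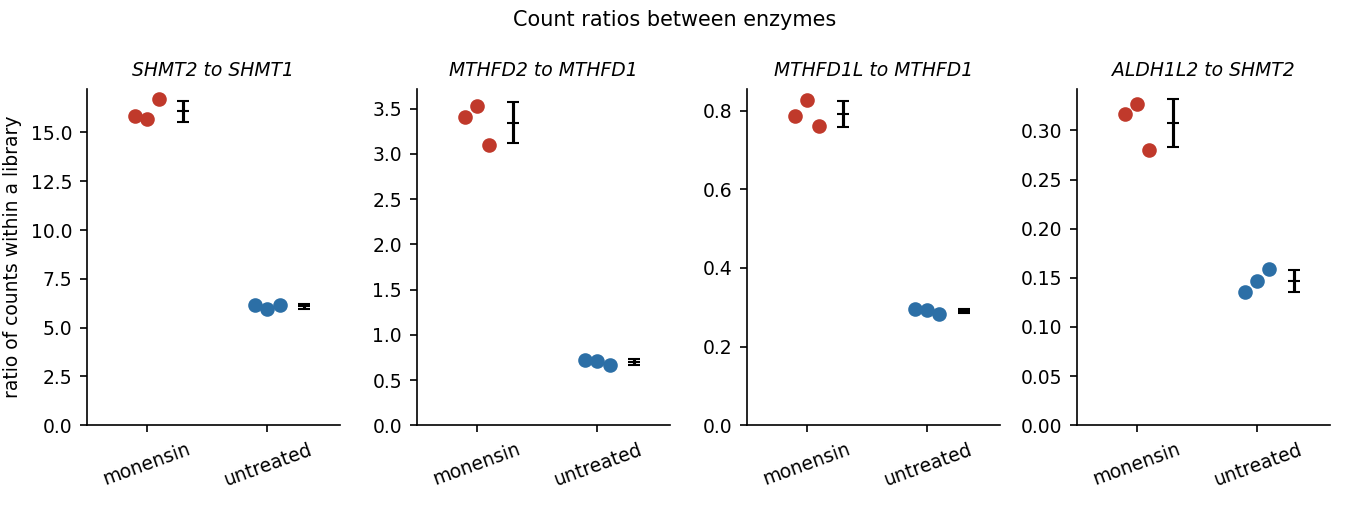
Ratio of counts of 2 genes within each library (points, linear axes from 0), for monensin (red, left) and untreated (blue, right), with mean ± SD beside each group. All 4 ratios are higher in every monensin library, most for MTHFD2 to MTHFD1, at 3.34 ± 0.227 against 0.699 ± 0.0307.

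SDS, serine dehydratase, deaminates serine to pyruvate and is known mainly from liver. It had 212, 237 and 200 counts in monensin libraries and 6, 4 and 4 in untreated libraries. Every untreated library held only a few counts. Scaled to depth, the ratio was 45.7, with a 95% counting interval from 27.0 to 84.1 that covers counting error only. The log2 fold change was 5.48 (SE 0.20, edgeR adjusted p = 2.43e-12). Its level with monensin, 8.77 ± 0.634 CPM (SD, n = 3), was against 0.191 ± 0.0429 CPM in untreated libraries. SDSL, its paralog, overlaps it on the opposite strand of chromosome 12, with no exonic bases in common. SDSL also rose, with 25.0 ± 1.87 CPM in monensin libraries and 11.1 ± 0.838 CPM in untreated libraries (SD, n = 3 each) and a log2 fold change of 1.18 (SE 0.08, edgeR adjusted p = 2.87e-09).

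Spread between libraries of a group was small for most of the genes. The coefficient of variation ran from 0.434% to 7.23% in monensin libraries, and from 1.23% to 7.26% in untreated libraries leaving out SDS, which had 22.4% on its few counts. Of the 10, 5 are in the authors' deposited table of regulated genes, which lists absolute log2 fold changes above 1 and holds 12.5% of the tested genes. The authors' deposited table gives log2 fold changes of 5.49 for SDS, 2.23 for PHGDH, 1.69 for ALDH1L2, 1.52 for PSAT1 and -1.32 for MTHFD1.

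Per length, the order of the genes differed between the groups. In counts scaled to depth and to kilobases of merged exons (RPKM), monensin libraries had PSAT1 at 163 ± 9.26, PHGDH at 97.1 ± 2.62, MTHFD2 at 95.8 ± 3.50 and SHMT2 at 63.3 ± 1.03 (SD, n = 3). PHGDH and MTHFD2 were within each other's spread. MTHFD1L followed at 22.0 ± 0.0955, then MTHFD1 at 14.9 ± 0.644 and PSPH at 14.7 ± 0.622, whose values overlapped, ALDH1L2 at 11.1 ± 0.752, SDS at 2.92 ± 0.211 and SHMT1 at 2.62 ± 0.0522 RPKM. In untreated libraries PSAT1 was also highest, at 56.1 ± 0.688, followed by MTHFD2 at 49.3 ± 1.67, SHMT2 at 40.3 ± 0.546 and MTHFD1 at 36.6 ± 0.817 RPKM. PHGDH at 20.4 ± 0.484 and MTHFD1L at 19.9 ± 0.350 RPKM overlapped. PSPH had 8.35 ± 0.263, SHMT1 4.40 ± 0.149, ALDH1L2 3.37 ± 0.245 and SDS 0.0636 ± 0.0143 RPKM. SHMT1 was below ALDH1L2 with monensin and above it in untreated cells, and MTHFD1 was below MTHFD1L with monensin and above it in untreated cells, by either measure of length. Several places depend on the length used. The merged exons of PHGDH span 9217 bases and its longest transcript 3180, and by the longest transcript it ranks first in both groups. By the mean at that length SHMT1 also lies above SDS with monensin, and in untreated cells SHMT2 lies above MTHFD2 and PSAT1 and SHMT1 above PSPH.

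Related genes of the pathway, 54 tested of 62 listed, did not follow 1 direction. By edgeR at an adjusted p under 0.05, 16 were raised and 29 lowered. Of all tested genes 34.1% were raised and 33.7% lowered, the shares against which each list's counts are to be read. The lists were chosen with earlier results of these data known. Carriers of serine and glycine were raised for 5 of 8 genes and lowered for 2, with a median log2 fold change of 0.57. SLC6A9, a glycine transporter of the plasma membrane, had 10.3 ± 0.521 CPM in monensin libraries and 0.466 ± 0.0227 CPM in untreated libraries (SD, n = 3 each), a log2 fold change of 4.45 (SE 0.15). SLC1A4, a carrier of neutral amino acids including serine, rose 2.28-fold, and SLC38A2, which takes up small neutral amino acids with sodium, 1.82-fold. SFXN1, a carrier that brings serine into mitochondria, was among the 2 that fell, with 68.4 ± 1.44 CPM in monensin libraries and 125 ± 4.64 CPM in untreated libraries (SD, n = 3 each); SFXN2 was the other. 

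Folate uptake and retention had 1 of 6 tested genes raised and 3 lowered, with a median of -0.14. Over all tested genes these shares were 34.1% and 33.7%. SLC25A32, the carrier of folate into mitochondria, fell with a log2 fold change of -0.75 (SE 0.05), and GGH, which trims the glutamate tail of folates, with one of -0.69 (SE 0.05). SLC19A1, the reduced folate carrier, fell by 0.21 on the log2 scale (SE 0.05), by 0.12 under total counts and by 0.44 after correction for GC and length. SLC46A1, a proton-coupled folate transporter, had 34.1 ± 1.15 CPM in monensin libraries and 35.9 ± 1.33 CPM in untreated libraries (SD, n = 3 each), and was not called (edgeR adjusted p = 0.238), except after correction for GC and length (log2 fold change -0.25, adjusted p = 0.000232). FOLR2, a folate receptor, was the gene that rose, at a log2 fold change of 0.96 (SE 0.15).

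All 4 genes of folate-dependent thymidylate and purine synthesis fell (median -0.88 on the log2 scale). Of all tested genes, 33.7% were lowered and 34.1% raised. TYMS, which makes thymidylate, changed by -1.67 on the log2 scale (SE 0.05). ATIC and GART, which use formyl-THF to build the purine ring, had -0.57 (SE 0.04) and -0.47 (SE 0.04). Of 11 tested genes of glycolysis from glucose to 3-phosphoglycerate and its isomer, 9 fell and 1 rose, with a median of -0.37. PGAM1, which draws 3-phosphoglycerate on towards pyruvate, had 114 ± 1.93 CPM in monensin libraries and 204 ± 4.49 CPM in untreated libraries (SD, n = 3 each). TPI1, GPI and PGK1 had log2 fold changes of -0.60, -0.51 and -0.48, and GAPDH, the gene that rose, one of 0.13 (SE 0.04), a call lost without untreated library 3 or monensin library 3.

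**Figure D4:**
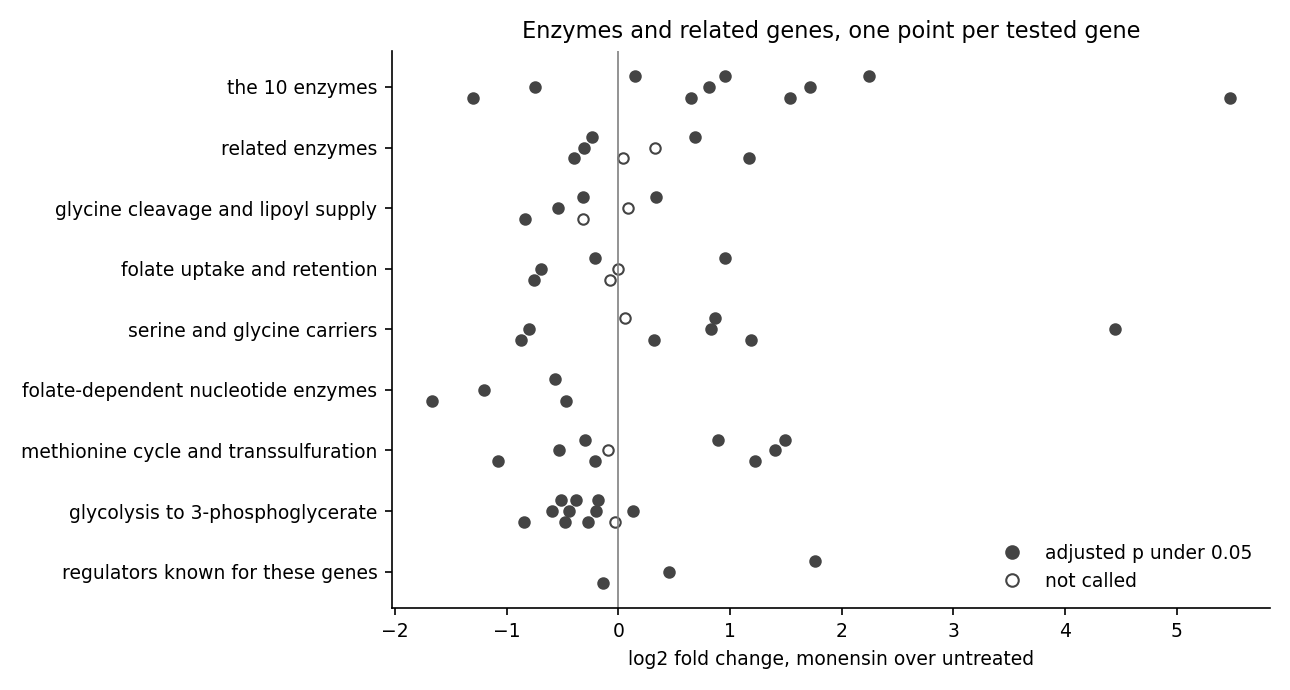
Log2 fold change of monensin over untreated for the 10 enzymes (top) and 8 lists of related genes, 1 point per tested gene, filled where the adjusted p was under 0.05; vertical scatter within a row carries no meaning. All 4 folate-dependent nucleotide genes lie left of 0, and carriers of serine and glycine mostly right of it.

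Glycine cleavage and lipoyl supply had 1 of 6 tested genes raised and 3 lowered, with a median of -0.31. Shares of all tested genes were 34.1% raised and 33.7% lowered. DLD, the dehydrogenase subunit that several mitochondrial complexes share, had a log2 fold change of -0.54 (SE 0.04), LIAS, which makes lipoyl groups, one of -0.32 (SE 0.08), and LIPT1, a lipoyltransferase, one of 0.34 (SE 0.10). LIPT1 lost its call without monensin library 1 (log2 fold change 0.26, adjusted p = 0.0573), and LIAS after correction for GC and length (-0.11, adjusted p = 0.251). GLDC, the glycine-decarboxylating subunit, was the other that fell (log2 fold change -0.84, SE 0.15). In the methionine cycle and transsulfuration, 4 of 9 tested genes rose and 4 fell (median -0.09). MTR, methionine synthase, had 51.0 ± 0.416 CPM in monensin libraries and 108 ± 7.16 CPM in untreated libraries (SD, n = 3 each), and its reductase MTRR a log2 fold change of -0.53 (SE 0.05). CBS, the first enzyme of transsulfuration, had 32.6, 11.9 and 16.5 CPM in monensin libraries and 8.98, 9.48 and 14.5 CPM in untreated libraries. These groups overlapped; its log2 fold change of 0.89 (SE 0.27, edgeR adjusted p = 0.00915) was 0.36 (adjusted p = 0.0723) without monensin library 1, and DESeq2 did not call it (adjusted p = 0.102). CBSL, a gene copy of CBS, had 22 counts over the monensin libraries and 8 over the untreated libraries; whether reads of CBS were lost to it was not tested.

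Among other related enzymes, 2 of 7 tested genes rose and 3 fell (median 0.05), beside 34.1% and 33.7% of all tested genes. Besides SDSL, those named by the rule were MTFMT, which formylates the mitochondrial initiator transfer RNA, with a log2 fold change of -0.39 (SE 0.08), MTHFD2L, the paralog of MTHFD2, with -0.31 (SE 0.09), and SRR, serine racemase, with -0.23 (SE 0.09, edgeR adjusted p = 0.0398). MTHFD2L thus fell while MTHFD2 rose; its value was -0.12 (adjusted p = 0.272) after correction for GC and length. SRR lost its call in 9 of 13 alternative fits, among them every omission of 1 library but that of untreated library 1, and at an adjusted p under 0.01. Of 3 transcriptional regulators known for these genes, ATF4 had 806 ± 34.2 CPM in monensin libraries and 238 ± 5.99 CPM in untreated libraries (SD, n = 3 each). NFE2L2, which encodes NRF2, had 110.3 ± 2.78 CPM in monensin libraries and 80.3 ± 0.906 CPM in untreated libraries (SD, n = 3 each). MYC had a log2 fold change of -0.13 (SE 0.04, edgeR adjusted p = 0.0110), which was -0.05 (adjusted p = 0.286) under total counts, -0.11 (adjusted p = 0.0654) without monensin library 1, and -0.37 (adjusted p = 5.01e-08) after correction for GC and length.

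Genes most like 3 of the enzymes were sought by the root mean square distance between log2 CPM values of the 6 libraries, each centred on the untreated mean, among 11554 genes. Closest to PHGDH were FTH1 (distance 0.0624), TSC22D3 (0.0672) and SLC15A3 (0.0751). Closest to SHMT2 were CRTAP (0.0143), EEF2 (0.0173) and LFNG (0.0187). Closest to MTHFD2 were PNRC1 (0.0192), PLEK (0.0202) and AC021054.1 (0.0283). With 2 groups of libraries this likeness says mainly that the size of the change was similar: log2 fold changes were 2.30 for FTH1, 0.64 for CRTAP and 0.96 for PNRC1.

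Gene counts summed to between 22975888 and 24774546 in monensin libraries and between 24159573 and 25710513 in untreated libraries. Reads in no annotated gene made up 10.4% to 11.2% of tallied alignments in monensin libraries and 8.61% to 8.99% in untreated libraries; the part of this in the results was not tested. All 8 myeloid markers were detected, with summed levels of 2418 to 2534 CPM in monensin libraries and 2137 to 2217 CPM in untreated libraries. Single markers differed more: LYZ averaged 292 CPM in monensin libraries and 791 CPM in untreated libraries, and CD33 averaged 101 CPM in monensin and 134 CPM in untreated libraries. FCER1G averaged 434 CPM in monensin and 142 CPM in untreated libraries, and ITGB2 959.6 CPM in monensin and 619 CPM in untreated libraries; the part of this in the results was not tested. Erythroid and epithelial markers had 0 counts, T-cell markers had at most 1 count in any library, and B-cell markers summed to 2.53 to 2.66 CPM in monensin libraries and 1.42 to 1.98 CPM in untreated libraries. Fibroblast markers summed to 1.03 to 1.32 CPM in monensin libraries and 0.386 to 0.842 CPM in untreated libraries, and the part of either in the results was not tested. Fewer cells and less RNA per cell cannot be told apart in these bulk libraries. The kit marks the strand, but the sources used here do not give the counting's strand setting. Reads of genes that overlap on the other strand may therefore be shared. SLC4A5 shares most exonic bases, 1324 with MTHFD2, and had 49 counts over the monensin libraries and 23 over the untreated libraries. AL122035.2 (756 bases, MTHFD1) had 58 and 35 counts over the same groups, AC137834.2 (427, SHMT2) 12 and 3, and AC006030.1 (295, MTHFD2) 49 and 13. SMCR8 shares 196 with SHMT1 and had 5070 and 3923 counts over the same groups. SHMT1 itself had 489, 486 and 436 counts in monensin libraries and 789, 776 and 772 in untreated libraries. ZBTB25 (178 bases, MTHFD1) had 967 and 794, C12orf45 (145, ALDH1L2) 948 and 1382, and NDUFA4L2 (33, SHMT2) 684 and 206. The part of these overlaps in the results was not tested. MTHFD2P7, a processed pseudogene of MTHFD2, had 274 counts over the monensin libraries and 154 over the untreated libraries, few beside those of MTHFD2.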

How the data were processed

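RNA of 6 THP-1 libraries was extracted with Trizol, made into directional NEBNext libraries and read as single reads on a NextSeq instrument, per the labels' protocols. The authors deposited raw counts of reads per gene. The submitters' processing notes name HISAT2 2.1.0 and HTSeq 0.11.1 beside bcl2fastq, Trimmomatic 038 and DESeq2 1.22.2, on build hg38 (GRCh38). The authors also deposited a list of 2410 genes with log2 fold changes, without errors. The 5 tally lines of reads not assigned to a gene, of which those in no annotated gene are a part, were left out. They held 21.6% ± 0.398 of alignments in monensin and 19.3% ± 0.388 in untreated libraries (SD, n = 3).

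Groups came from the treatment labels. Counts of all genes were tested with edgeR 4.0.16 (R 4.3.3): filterByExpr by group, TMM, quasi-likelihood F test, Benjamini-Hochberg adjustment over 16542 genes, threshold 0.05. Standard errors came from the coefficient and its F statistic. CPM used TMM-scaled depths. Lengths came from GENCODE 29, which holds 99.79% of the gene identifiers. The tests were tried on simulated counts in which far fewer genes changed than were called here. There edgeR recovered 53.4% of 1.25-fold, 71.4% of 1.5-fold, 90% of 2-fold and 100% of 4-fold changes, with 16 false calls. DESeq2 recovered 44.8%, 67.3%, 85% and 95.1%, with 8 false calls. Named genes were the 10 enzymes, from each list the up to 4 genes that changed most in either direction at a mean log2 CPM of 2 or more, the 3 regulators, and the 3 genes nearest in pattern to PHGDH, SHMT2 and MTHFD2 (pseudocount 0.5 CPM). SFXN2, FOLR2, GLDC, GAPDH, CBSL, ALDH1L1 and single markers, and the copies and neighbours of the enzymes, were named after their values were seen. A few list genes are not reported individually. ALDOA had 2 identifiers and was not used. The enzymes, lists and tests were chosen with earlier results of these data known. Alternatives were RLE size factors, total counts, a stricter filter (50 counts in all and 1 CPM in 3 libraries), no filter, a replicate block, DESeq2 1.42.0, each library left out, adjusted p under 0.01, and GC and length trends removed. No 2 libraries were identical, and replicates differed by 1.84 to 4.68 in chi-square per degree of freedom.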

Additional observations from a re-analysis of the deposited data

How the results depend on the processing

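Over 13 alternative fits, 129 of 130 values of the 10 enzymes kept direction and call. The exception was MTHFD1L, at -0.0105 (adjusted p = 0.816) after correction for GC and length, where 7 of the 10 were raised and 2 lowered; under every other alternative 8 were raised and 2 lowered. With each library left out, the log2 difference of the count ratios ran from 1.37 to 1.42 for SHMT2 to SHMT1 and from 2.22 to 2.31 for MTHFD2 to MTHFD1. It ran from 1.41 to 1.47 for MTHFD1L to MTHFD1 and from 1.01 to 1.13 for ALDH1L2 to SHMT2. The ratios were not recomputed after correction for GC and length. That correction put the log2 fold changes of SHMT2 at 0.41 and of ALDH1L2 at 1.87, against 0.65 and 1.71 in the main fit. Genes raised ran from 4711 (adjusted p under 0.01) to 6582 (total counts), and genes lowered from 4605 (total counts) to 6435 (correction for GC and length). SLC46A1, not called, had a log2 fold change of 0.00954 under total counts and was called lowered, at -0.25 (adjusted p = 0.000232), after correction for GC and length. Replicate numbers gave no clear sign of a pairing. Deviations of same-numbered libraries from their group means correlated at -0.15, 0.15 and 0.02 (across genes), and untreated library 1 correlated best with monensin library 3. Deviations within a group cancel out, so these correlations depend on each other and cannot settle whether the libraries are paired. With the replicate block 5515 genes were raised and 5435 lowered, the 10 enzymes kept their calls, and SRR lost its call (adjusted p = 0.0569).

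Small counts in lists of related genes moved under several alternatives, and the cause was not tested. Related enzymes raised were 1 with DESeq2, at an adjusted p under 0.01 and after correction for GC and length, and ran from 1 to 3 without each library (1 without untreated library 3, monensin library 1 or monensin library 2). Glycolysis genes raised were 0 with the replicate block, at an adjusted p under 0.01 and after correction for GC and length, and 0 to 1 without each library (0 without untreated library 3 or monensin library 3). Regulators lowered were 0 under total counts and at an adjusted p under 0.01, and 0 to 1 without each library; glycine cleavage genes raised were also 0 to 1 without each library, with 0 of both without monensin library 1. Folate uptake genes raised were 2 with no filter, and those lowered were 5 after correction for GC and length.

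With the length of the longest transcript, levels in monensin libraries were 282 RPKM for PHGDH, 105 for MTHFD2, 89.7 for SHMT2, 30.6 for MTHFD1L, 20.5 for MTHFD1, 18.6 for PSPH, 12.5 for ALDH1L2, 6.91 for SHMT1 and 5.46 for SDS. In untreated libraries they were 59.2 for PHGDH, 57.1 for SHMT2, 53.9 for MTHFD2, 50.4 for MTHFD1, 27.7 for MTHFD1L, 11.6 for SHMT1, 10.6 for PSPH, 3.80 for ALDH1L2 and 0.119 for SDS. PSAT1 was unchanged, since its merged exons form 1 transcript length. Depth limits SDS, with 14 counts over the untreated libraries.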
